A study of Mus musculus with 6 samples.

Results

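The AP-1, EGR and ATF3 immediate early factors were taken as the genes Fos, Fosb, Fosl1, Jun, Junb, Jund, Egr1, Egr2, Atf3 and Ier2, matched by gene symbol in the deposited count table. Of these 10 genes 9 were matched among 19288 genes, all 9 passed the filter on low counts, and Egr2 was not analysed here. The table holds 6 mRNA libraries, each from a subcutaneous tumour grown from LLC1, a mouse line of Lewis lung carcinoma. All hosts carried a beta-hCG transgene (beta-hCG is the hormone-specific chain of human chorionic gonadotropin) and came from an outcross of CB57BL/6 females, as the labels spell the strain, with transgenic FVB males. The 3 groups had 2 libraries each: transgenic tumours, from hosts for which no surgery or agent is named, vehicle tumours, from ovariectomized hosts that received vehicle, and progesterone tumours, from ovariectomized hosts that received progesterone. Both agents were given for 28 days and all tumours were collected on day 30 after implantation. The sources used here do not give host age, the vehicle, the progesterone dose, the promoter of the transgene or the number of animals per library, and no group lacked the transgene.

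Immediate early genes are transcribed within minutes of a stimulus, without new protein synthesis, and their mRNAs are short-lived. Fos proteins (Fos, Fosb and Fosl1, also called FRA1) pair with Jun proteins (Jun, Junb, Jund) through leucine zippers to form AP-1, which activates genes of growth, invasion and matrix breakdown. Egr1 is a zinc finger factor induced through MAP kinase signalling, Atf3 is a stress-induced factor of the ATF family that can also pair with Jun proteins, and Ier2 is a small nuclear protein induced by growth factors. In carcinoma cells Fosl1 is often held at a high steady level by RAS and MAP kinase signalling, whereas Fos, Fosb and Egr1 are usually transient.

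Promoters of such genes often carry the cyclic AMP response element, bound by CREB and ATF factors, whose core is TGACG. RefSeq windows on GRCm38.p6 were found for 6 of the 9 factors, and the 250 bases before the start held TGACG on either strand in 4 of the 6 (Fos, Fosb, Junb and Atf3), against 17.8% of all 32851 windows. These 4 are shown because their transcripts are compared below. Each run gives the 130 bases before the start, 5′ to 3′ on the gene's strand, with TGACG or its complement CGTCA in capitals.
Fos, chr12:85473760-85473889, plus strand: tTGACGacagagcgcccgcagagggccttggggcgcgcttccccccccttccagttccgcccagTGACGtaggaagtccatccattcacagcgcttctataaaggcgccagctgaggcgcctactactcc
Fosb, chr7:19310046-19310175, minus strand: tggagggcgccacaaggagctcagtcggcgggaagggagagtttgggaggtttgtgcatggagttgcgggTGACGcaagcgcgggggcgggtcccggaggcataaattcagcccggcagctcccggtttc
Junb, chr8:84978749-84978878, minus strand: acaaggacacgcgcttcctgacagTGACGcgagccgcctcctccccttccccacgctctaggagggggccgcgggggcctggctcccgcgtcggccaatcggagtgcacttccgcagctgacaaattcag
Atf3, chr1:191183334-191183463, minus strand: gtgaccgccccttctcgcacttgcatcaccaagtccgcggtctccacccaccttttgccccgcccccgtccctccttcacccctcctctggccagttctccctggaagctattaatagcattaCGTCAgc
In Fos the core stood at 66 to 62 and at 129 to 125 bases before the start, in Fosb at 60 to 56, in Junb at 106 to 102 and in Atf3 at 7 to 3. The Fosb window alone held an EGR site (GCGTGGGCG or GCGGGGGCG searched), at 50 to 42 bases, against 3.06% of all windows, and this site overlaps a GGGCGG match for SP1. None of the 6 windows held the AP-1 element TGACTCA (4.46% of all windows), the full element TGACGTCA, which contains the core (1.55%), or the CArG box of serum response factor (1.47%). Only exact matches in the 250 bases before the start were searched, so a variant or an element further upstream would be missed. The Jun window, for example, held TGACATCA, which matches neither TGACTCA nor TGACGTCA. No window was found for Fosl1, Egr1 or Ier2. The SP1 motif GGGCGG was in 4 of the 6 (32.7% of all windows), and all motifs were searched on both strands. The windows of Jun and Jund held no TGACG. The RefSeq start used for Jund lies 1210 bases before the start of its GENCODE gene, and the one for Atf3 lies 34706 bases inside its longest GENCODE model.

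Positions of the 9 genes follow (GENCODE M21, GRCm38, positions counted from 1). Fos (ENSMUSG00000021250) lies on chromosome 12 at 85473890 to 85477273, and Fosb (ENSMUSG00000003545) on chromosome 7 at 19302696 to 19310051. Fosl1 (ENSMUSG00000024912) lies on chromosome 19 at 5447547 to 5455946. Jun (ENSMUSG00000052684) is on chromosome 4 at 95049034 to 95052222, and Egr1 (ENSMUSG00000038418) on chromosome 18 at 34859823 to 34864984. Atf3 (ENSMUSG00000026628) is on chromosome 1 at 191170296 to 191218039. Chromosome 8 holds 3 of them: Jund (ENSMUSG00000071076) at 70698949 to 70700616, Ier2 (ENSMUSG00000053560) at 84661331 to 84662852 and Junb (ENSMUSG00000052837) at 84974484 to 84978718. Jun, Jund and Ier2 are single-exon genes. A gene on the opposite strand shares 57.2% of the exonic bases of Fosl1 (Ccdc85b), 52.6% of those of Jund (the antisense gene Gm11175), 7.28% of those of Jun (Junos) and 7.52% of those of Junb (Prdx2). Whether counting used the strand is not given, so reads there cannot be assigned with certainty and the levels of Fosl1 and Jund are uncertain. Ccdc85b itself had a log2 fold change of -0.04 in progesterone against vehicle tumours.

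The libraries held 19526775 to 30083925 counts. The limit that a count of 0 allows, taken as 3 counts, is 0.0997 to 0.154 CPM (counts scaled to a common library total). The smallest count of any factor was 65, for Fosb in progesterone library 1, which is 2.51 CPM with a 95% Wilson interval of 1.97 to 3.2. This interval covers counting error only. On the first principal component, with 31.5% of the variance, transgenic library 2 stood at 54.5 and the other 5 between -32.7 and 23.2. On the second, with 27.4%, progesterone library 2 stood at -62.9 and the others between -0.677 and 22.3. Of the 9 markers listed for the lung epithelial lineage of the line, 7 were matched. The summed level of these was 267 to 766 CPM, nearly all from the keratins Krt8 and Krt18, while Epcam did not pass 0.222 CPM and Sftpc had at most 1 count.

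Levels were compared per length as TPM (counts divided by gene length, then scaled to a common sum per library). Fosl1 had the highest mean over the 6 libraries, 412 TPM (range 339 to 530.3). Jun followed at 318 TPM (256 to 396), Junb at 270.4 (187 to 324) and Ier2 at 125 (81.6 to 158). The stress and transient factors were lower, with Atf3 at 46.3 TPM (25.2 to 88.2), Fos at 41.0 (17.7 to 75.9) and Egr1 at 27.9 (13.9 to 42.7). Jund at 18.5 TPM (12.2 to 25.2) and Fosb at 11.4 (1.39 to 40.7) came last. The ranges of neighbours in this order overlapped, except for Junb and Ier2. Compared within each library, the order held in 6 of 6 for Junb over Ier2 and for Ier2 over Atf3, in 3 of 6 for Atf3 over Fos and in 5 of 6 for the other neighbours. Within the Fos members Fosl1 made up 82.0% to 93.8% of the summed TPM, Fos 4.90% to 12.7% and Fosb 0.336% to 6.29%. The share of Fos was 11.7% and 12.7% in the vehicle libraries and at most 8.70% in the other 4. Within the Jun members Jun made up 45.7% to 58.5%, Junb 39.5% to 52.1% and Jund 2.07% to 4.29%. The spread across libraries was unequal too: the highest library exceeded the lowest by 28.7 times for Fosb, 4.46 for Fos, 3.65 for Atf3 and 3.06 for Egr1, but by 1.65 times for Fosl1 and 1.71 for Jun.

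**Figure D1:**
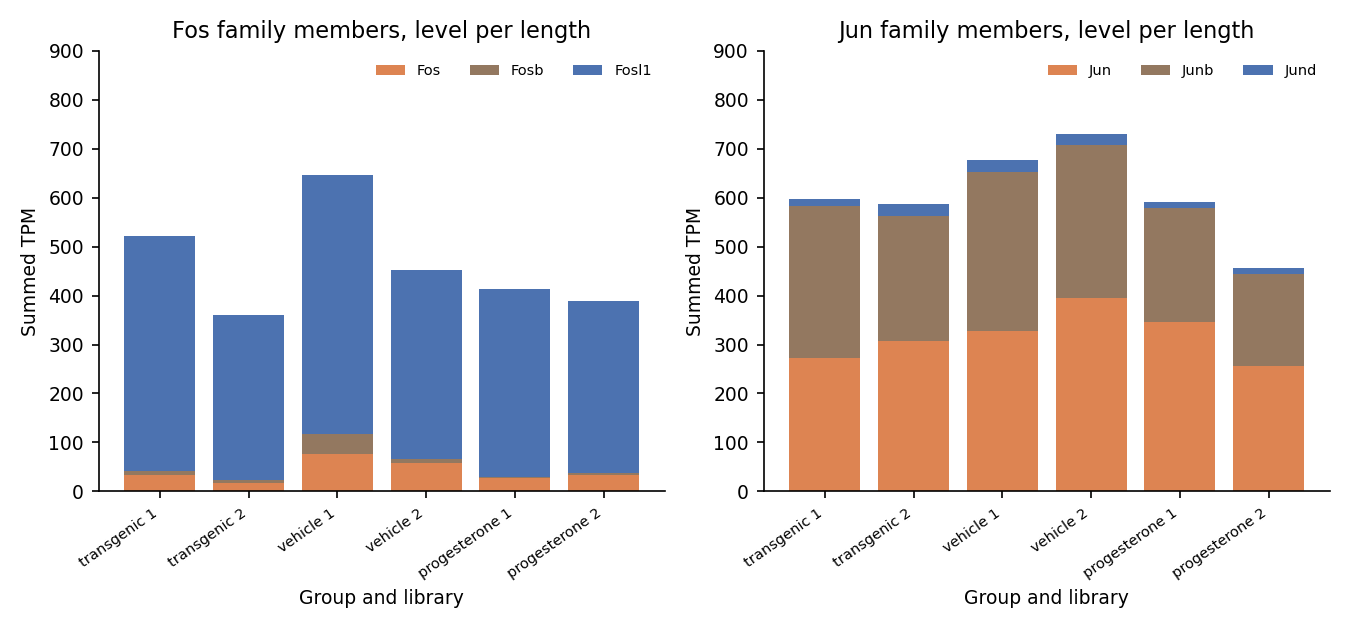
Level per length (TPM, stacked) of the 3 Fos members (left) and 3 Jun members (right) in each of the 6 libraries, 2 per group. Fosl1 fills 82.0% or more of every bar on the left, and Jun and Junb fill nearly all of every bar on the right.

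Values by library are given next as TMM-scaled CPM, which compares 1 gene across libraries but not different genes. Among the Fos members, Fos stood at 50.7 and 38.9 CPM in vehicle tumours, at 23.2 and 11.4 in transgenic and at 18.5 and 20.7 in progesterone tumours. Both vehicle libraries thus lay above all 4 others. Fosb had 72.1 and 14.9 CPM in vehicle, 15.6 and 8.09 in transgenic and 2.51 and 7.24 in progesterone tumours. Its high vehicle mean, 43.5 ± 40.5 CPM (SD, n = 2), rests on vehicle library 1, as vehicle library 2 lay below transgenic library 1. Fosl1 had 306 and 227 CPM in vehicle, 282 and 188 in transgenic and 226.8 and 186 in progesterone tumours. Its vehicle and transgenic ranges overlapped widely.

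Among the Jun members, Jun had 297 and 364 CPM in vehicle, 252 and 268 in transgenic and 319.9 and 213 in progesterone tumours. Progesterone library 2 was thus the lowest of all 6, while progesterone library 1 lay between the vehicle libraries. Junb had 212 and 207 CPM in vehicle, 207 and 160.0 in transgenic and 156 and 113 in progesterone tumours, so both progesterone libraries were the lowest. Jund had 11.8 and 11.0 CPM in vehicle, 6.52 and 11.5 in transgenic and 5.91 and 5.46 in progesterone tumours, again lowest with progesterone.

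Egr1 had 53.9 and 55.1 CPM in vehicle, 42.2 and 25.5 in transgenic and 18.04 and 17.998 in progesterone tumours. Its 3 groups did not overlap, and the libraries of the vehicle and of the progesterone group lay close together. Atf3 had 54.0 and 35.9 CPM in vehicle, 20.2 and 28.1 in transgenic and 15.7 and 14.8 in progesterone tumours, in the same order of groups and without overlap. Ier2 had 60.7 and 56.7 CPM in vehicle, 62.0 and 65.7 in transgenic and 45.4 and 32.4 in progesterone tumours, so it alone was highest in the transgenic group. Both vehicle libraries exceeded the other 4 for 3 of the 9 factors (Fos, Egr1, Atf3), against 6.87% of the 13632 genes tested. Both progesterone libraries lay below the other 4 for 6 of 9 (Fosb, Junb, Jund, Egr1, Atf3, Ier2), against 6.40% of genes. Vehicle library 1 was the highest of all 6 for 6 factors (Fos, Fosb, Fosl1, Junb, Jund, Atf3), against 15.3% of genes.

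**Figure D2:**
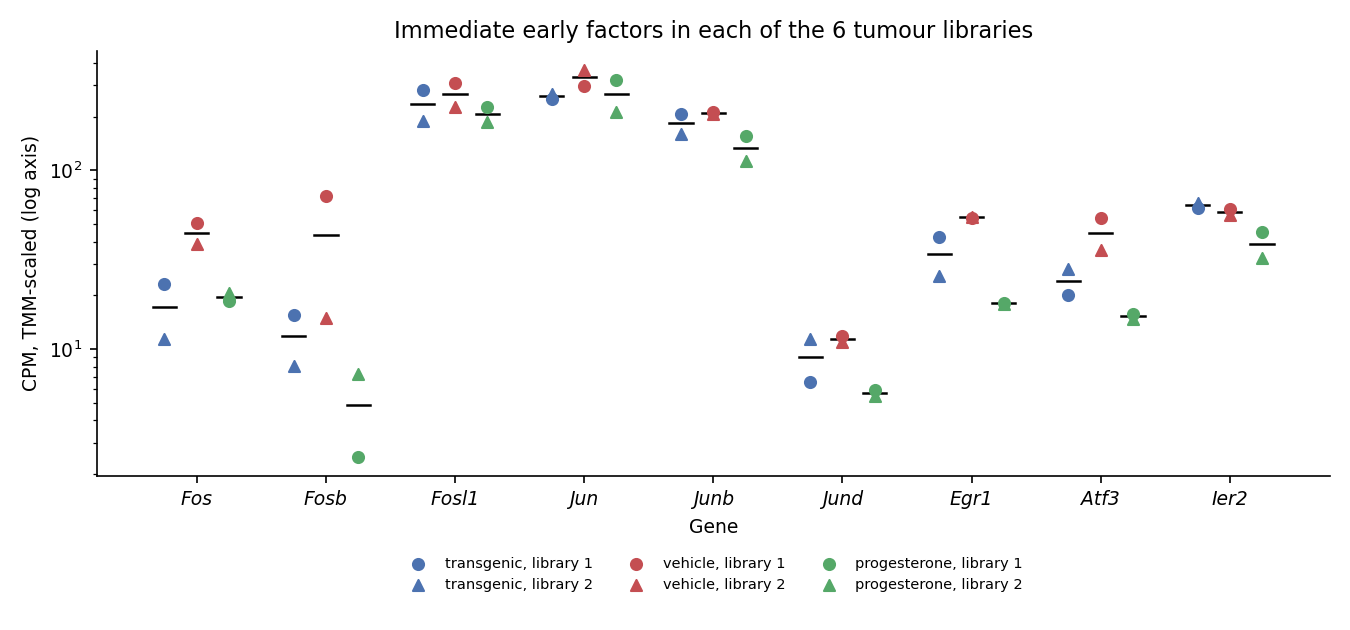
TMM-scaled CPM (log axis) of the 9 factors in each library, with circles for library 1, triangles for library 2, colours for the 3 groups and bars for group means. Egr1 shows 3 separate groups, while the vehicle point for library 1 of Fosb, at 72.1 CPM, stands far above its partner at 14.9.

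The comparison of progesterone with vehicle tumours concerns progesterone supplementation in ovariectomized hosts. With 2 libraries per group, its effect cannot be told apart from other differences between these tumours, such as their handling at collection. All 9 factors were lower in the progesterone tumours, as were 48.9% of all genes tested. Their log2 fold changes ran from -3.16 to -0.31 with a median of -1.003, against 0.01 over all genes tested. In 8 of the 9, Jun being the exception, the groups did not overlap, against 17.8% of genes lower without overlap. By edgeR with Benjamini-Hochberg adjustment 0 of the 9 were called, as were 0 of all 13632 genes (0%). At an unadjusted p under 0.05, 7 of the 9 were lower, against 2.52% of all genes. limma-voom made 0 calls. DESeq2 made 75, with 40 lower (0.305% of the genes it tested), Egr1 and Atf3 among them, and 35 higher (0.267%).

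Egr1 averaged 18.02 ± 0.0320 CPM with progesterone and 54.5 ± 0.844 with vehicle (SD, n = 2 each), 3.03-fold lower, with a log2 fold change of -1.60 ± 0.26 (SE). Its adjusted p was 0.705 by edgeR, 0.707 by limma-voom and 6.27e-05 by DESeq2, and it ranked 9 of all genes by edgeR's p. Leaving out any 1 library moved its log2 fold change only between -1.62 and -1.58. Its SD with progesterone is smaller than counting error, since the 95% Wilson intervals of the libraries, scaled by TMM, were 16.5 to 19.8 and 16.4 to 19.8 CPM. Atf3 had 15.3 ± 0.646 against 44.9 ± 12.8 CPM, 2.94-fold lower, with a log2 fold change of -1.56 ± 0.28 (adjusted p = 0.817 by edgeR and 0.000357 by DESeq2). Of the 9 factors, these 2 had the largest log2 fold changes relative to the standard error of the model. Jund, with 5.69 ± 0.318 against 11.4 ± 0.611 CPM, had a larger difference than Atf3 relative to the SDs of its own libraries.

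Fosb had the largest difference and the largest error: 4.88 ± 3.34 against 43.5 ± 40.5 CPM, a log2 fold change of -3.16 ± 0.83 (adjusted p = 0.932 by edgeR). It was -1.62 without vehicle replicate 1 and -4.11 without progesterone replicate 2. Fos had a log2 fold change of -1.19 ± 0.35, Jund -1.003 ± 0.36, Junb -0.64 ± 0.21 and Ier2 -0.59 ± 0.20. Without progesterone replicate 2, Junb had -0.42 and Ier2 -0.37. Fosl1 (-0.37 ± 0.25) and Jun (-0.31 ± 0.23), the most abundant factors, had differences close to their errors. Jun had -0.05 without progesterone replicate 2 and -0.64 without progesterone replicate 1, and Fosl1 had -0.14 without vehicle replicate 1 and -0.57 without vehicle replicate 2. Without the filter on low counts, edgeR called Fosb, Egr1 and Atf3 (adjusted p of 0.00787, 0.00646 and 0.0113). They were among 92 called of 19288 genes, of which 36 were lower. Without vehicle replicate 1, Fos had -0.99 and Atf3 -1.24, and without vehicle replicate 2 they had -1.37 and -1.82. All 9 stayed lower under all 13 alternatives run, but these reuse the same libraries. For the 8 factors without overlap, leaving out 1 library could hardly reverse the direction.

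The comparison of vehicle with transgenic tumours concerns ovariectomy, but these hosts also received vehicle, and surgery and vehicle cannot be told apart. Of the 9 factors 8 were higher in the vehicle tumours, as were 48.5% of genes. Ier2 was lower (-0.12 ± 0.20), as were 51.5% of genes. The factors' median log2 fold change was 0.35, against -0.01 over all genes tested. In 4 of the 9 (Fos, Jun, Egr1, Atf3) the vehicle libraries lay above the transgenic ones without overlap, against 17.9% of genes, and Ier2 lay below without overlap, against 17.7%. By edgeR 0 of the 9 and 0 of all genes (0%) were called. At an unadjusted p under 0.05, 4 factors were higher (Fos, Fosb, Egr1, Atf3), against 2.68% of genes, and 0 were lower, against 2.89%. limma-voom made 0 calls. DESeq2 made 66, with 30 higher (0.255%) and 36 lower (0.306%), and 0 of them were factors.

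Fos averaged 44.8 ± 8.37 CPM with vehicle and 17.3 ± 8.35 in transgenic tumours (SD, n = 2 each), 2.59-fold higher. Its log2 fold change was 1.37 ± 0.35 (adjusted p = 0.810 by edgeR, 0.935 by limma-voom and 0.0504 by DESeq2). It was 0.95 without transgenic replicate 2 and 1.98 without transgenic replicate 1. Atf3 had 0.90 ± 0.27 (0.58 without vehicle replicate 1 and 0.68 without transgenic replicate 1) and Egr1 0.69 ± 0.26. For Fosb the log2 fold change of 1.88 ± 0.78 became 0.33 without vehicle replicate 1. Egr1 ranged from 0.37 without transgenic replicate 2 to 1.10 without transgenic replicate 1. The other Jun and Fos members had smaller values: Jun 0.35 ± 0.23, Jund 0.34 ± 0.35, Junb 0.19 ± 0.21 and Fosl1 0.18 ± 0.25. Junb had 0.02 without transgenic replicate 2 and 0.39 without transgenic replicate 1, and Jun 0.19 without vehicle replicate 2. Fosl1 changed sign without transgenic replicate 2 (-0.08) or vehicle replicate 1 (-0.05), and Jund without transgenic replicate 1 (-0.01), with 0.81 without transgenic replicate 2.

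Progesterone and transgenic tumours differ by both ovariectomy and progesterone. Here 7 of the 9 factors were lower in the progesterone tumours, as were 49.0% of genes, and 6 of 9 were lower without overlap, against 14.5% of genes. Their median log2 fold change was -0.66, against 0.01 over all genes. By edgeR 0 factors and 0 genes (0%) were called. At an unadjusted p under 0.05, 3 factors were lower (Egr1, Ier2, Atf3), against 2.54% of genes. limma-voom made 0 calls. DESeq2 made 47, with 33 higher (0.257%) and 14 lower (0.109%), and 0 of them were factors. Ier2 had 38.9 ± 9.16 CPM against 63.8 ± 2.64, a log2 fold change of -0.71 ± 0.20 (adjusted p = 0.914 by edgeR). Egr1 had -0.91 ± 0.26, -0.51 without transgenic replicate 1. Fosb had -1.28 ± 0.79, Atf3 -0.66 ± 0.27, Jund -0.66 ± 0.36 and Junb -0.45 ± 0.21. Leaving out 1 library moved Fosb from -2.23 (without progesterone replicate 2) to -0.72 (without progesterone replicate 1) and Junb from -0.24 to -0.71 in the same order. It moved Jund from -1.01 (without transgenic replicate 1) to -0.20 (without transgenic replicate 2) and Atf3 from -0.88 to -0.41 in the same order. Fos (0.18 ± 0.35), Jun (0.04 ± 0.23) and Fosl1 (-0.19 ± 0.25) were within their errors of 0. Fos had -0.24 without transgenic replicate 2 and 0.78 without transgenic replicate 1. The 3 comparisons share libraries pairwise, so their values are not independent of each other.

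**Figure D3:**
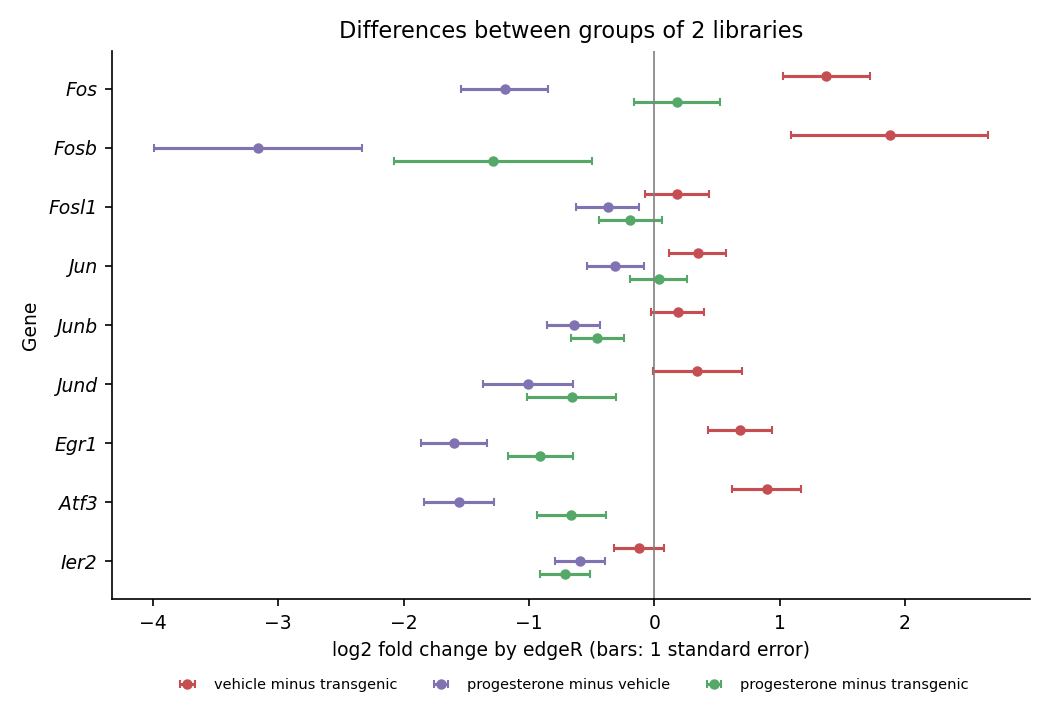
Log2 fold changes by edgeR with 1 standard error for the 9 factors in the 3 comparisons (n = 2 libraries per group). All 9 points for progesterone minus vehicle lie left of 0, with Fosb at -3.16 and Jun at -0.31, while Fos lies near 0 for progesterone minus transgenic.

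Across the 6 libraries all 36 pairs of factors had a positive Pearson correlation of log2 CPM, with a median of 0.64 and a range from 0.08 (Fosb with Jun) to 0.92 (Jund with Atf3). These values describe 6 libraries in 3 groups, which share the scaling and the group differences above. Against the mean of the other 8 factors, Egr1 had the highest correlation (0.93), followed by Junb (0.90) and Atf3 (0.89), and Jun the lowest (0.51). Averaged over the 9 as standardized levels, the vehicle libraries stood at 1.07 and 0.66 SDs, the transgenic at 0.16 and -0.19 and the progesterone ones at -0.57 and -1.12. The genes outside the set whose values followed this mean most closely were Fam167a (r = 0.99), Maff (0.99), Mxra7, Map4, Phldb1, Eif2b2 and Klf6 (0.97 to 0.98). They were the top 7 over 6 libraries among genes with a mean of 5 CPM or more. Maff, a small Maf protein, and Klf6, a zinc finger factor, are themselves immediate early genes. Fam167a had 54.5 and 39.9 CPM in vehicle, 29.9 and 22.7 in transgenic and 15.8 and 13.5 in progesterone tumours.

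**Figure D4:**
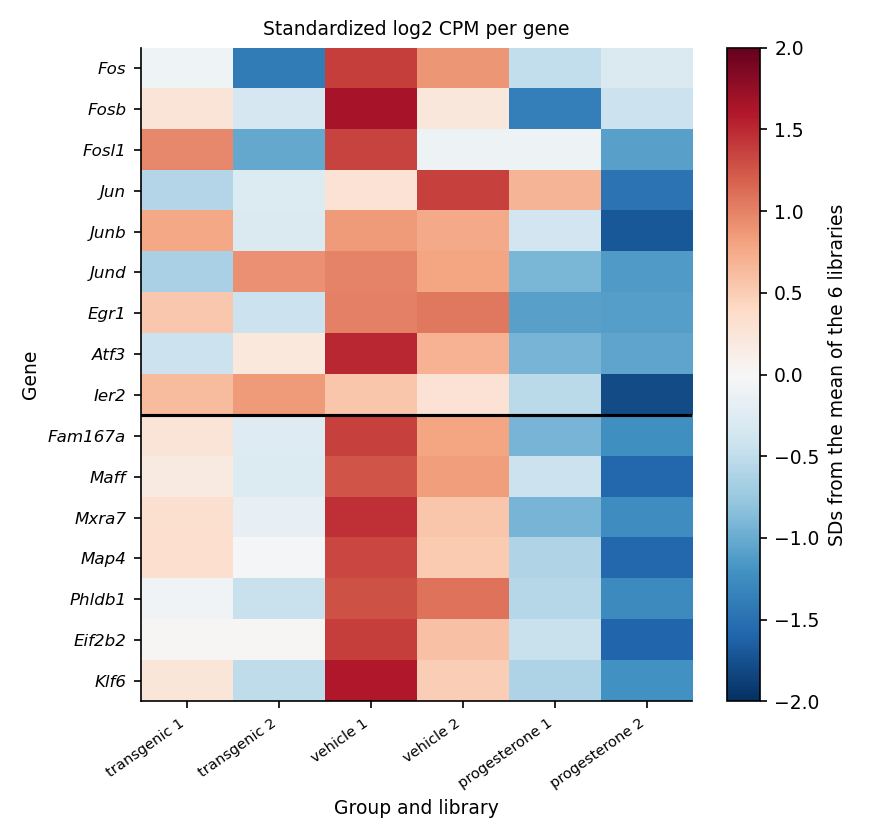
Log2 CPM of the 9 factors (above the line) and of the 7 genes with the most similar pattern (below the line), standardized per gene, in the 6 libraries. Red is above and blue below the gene's mean, and the progesterone columns are blue for all 9 factors except Jun in progesterone library 1, and nearly white for Fosl1 there.

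Other immediate early genes were read from lists. The following shares of all genes serve for each list below. In progesterone against vehicle tumours 48.9% were lower, with 2.52% lower and 2.77% higher at an unadjusted p under 0.05. DESeq2 called 0.305% lower and 0.267% higher. In vehicle against transgenic tumours 48.5% were higher, with 2.68% higher and 2.89% lower at an unadjusted p under 0.05. DESeq2 called 0.255% higher and 0.306% lower. In progesterone against transgenic tumours 49.0% were lower. Of 17 further immediate early transcription factors past the filter, 16 were lower in progesterone than in vehicle tumours (median log2 fold change -0.47). By edgeR 0 were called, 5 were lower at an unadjusted p under 0.05, limma-voom called 0 and DESeq2 called 2, Maff and Bhlhe40. Maff averaged 37.9 ± 9.67 CPM with progesterone and 71.96 ± 6.87 with vehicle. Bhlhe40, a transcriptional repressor of the circadian clock, had 83.5 ± 5.96 against 187 ± 50.5 CPM. The log2 fold change was -0.68 ± 0.20 for Klf6 and -1.10 ± 0.40 for the Notch target Hes1. The Fos relative Fosl2 had -0.34, Egr3 -0.52 and the orphan receptor Nr4a1 -0.66, and these 3 were chosen after their values were seen.

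Of 29 further immediate early genes and feedback inhibitors past the filter, 25 were lower in progesterone than in vehicle tumours, with a median of -0.37. By edgeR 0 were called, 5 were lower at an unadjusted p under 0.05, limma-voom called 0 and DESeq2 called 1, Ccn1. Ccn1, a matricellular protein, stood at 35.1 and 79.5 CPM with progesterone and at 243 and 156 with vehicle (log2 fold change -1.80 ± 0.42). The growth arrest gene Gadd45a had -1.06 ± 0.36, the survival gene Ier3 -1.48 ± 0.57 and the ERK phosphatase Dusp5 -0.51 ± 0.16. In vehicle against transgenic tumours the same lists had medians of 0.23 (10 of 17 higher) and 0.32 (23 of 29 higher), with 0 called by any of the 3 tools. At an unadjusted p under 0.05, 1 was higher and 1 lower in the first list and 1 higher in the second. In progesterone against transgenic tumours the medians were -0.22 (14 of 17 lower) and -0.12 (19 of 29 lower).

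Binding partners and upstream kinases had smaller differences. Of 18 AP-1 and ATF dimer partners 11 were lower in progesterone than in vehicle tumours (median -0.16), with 0 called by any of the 3 tools and 1 higher at an unadjusted p under 0.05 (2.77% of all genes). Of 23 kinases, ternary complex factors and cofactors 15 were lower (median -0.06), with 0 called by any tool and 2 lower at an unadjusted p under 0.05. These were the MAP kinase kinases Map2k1 (-0.37 ± 0.15) and Map2k4 (-0.38 ± 0.15).

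Genes described as AP-1 targets were more spread. Of 24 past the filter, 19 were lower in progesterone than in vehicle tumours, with a median of -0.96. By edgeR 0 were called, 7 were lower and 1 higher at an unadjusted p under 0.05, limma-voom called 0 and DESeq2 called 3, Mmp10, Hbegf and Hmox1. The stromelysin Mmp10 stood at 7.77 and 4.51 CPM with progesterone and at 36.6 and 97.5 with vehicle (log2 fold change -3.45 ± 0.58), and its relative Mmp3 had 369.8 and 197 against 2089 and 2363 CPM (-2.97 ± 0.72). The EGF receptor ligand Hbegf had 42.8 and 40.3 CPM in progesterone, 76.1 and 75.2 in vehicle and 80.8 and 84.8 in transgenic tumours. Both progesterone libraries thus lay below the other 4 for Hbegf, and DESeq2 also called it lower in progesterone than in transgenic tumours (adjusted p = 1.23e-06, against 0.798 by edgeR). The haem oxygenase gene Hmox1 went the other way, with 373 and 406 CPM in progesterone, 180.1 and 188 in vehicle and 202 and 162 in transgenic tumours. DESeq2 called Hmox1 higher in progesterone than in transgenic tumours as well (log2 fold change 1.10, adjusted p = 3.88e-06, against 0.827 by edgeR). In vehicle against transgenic tumours 16 of the 24 were higher (median 0.45), with 0 called by edgeR or limma-voom, 5 higher and 1 lower at an unadjusted p under 0.05, and 1, Mmp10, called by DESeq2.

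Of 13 EGR target and cofactor genes 8 were lower in progesterone than in vehicle tumours (median -0.28), and of 13 partners of Atf3 in the stress response 10 were lower (median -0.24). In both lists 0 were called by any of the 3 tools. At an unadjusted p under 0.05 the EGR list had 1 lower and 2 higher (Tnfsf10 and Icam1) and the stress list 1 lower and 1 higher (Gdf15). The log2 fold change was 0.89 ± 0.30 for Icam1 and 1.41 for Gdf15, named here as the stress gene that went up. Ndrg1, listed among EGR and hypoxia genes, had -1.01 ± 0.31, and Ppp1r15a, a phosphatase subunit of the integrated stress response, -0.71 ± 0.26. The death ligand Tnfsf10 averaged 1.97 ± 1.14 CPM with progesterone and 0.382 ± 0.0905 with vehicle. The growth factor Pdgfa stood at -0.28 ± 0.16.

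**Figure D5:**
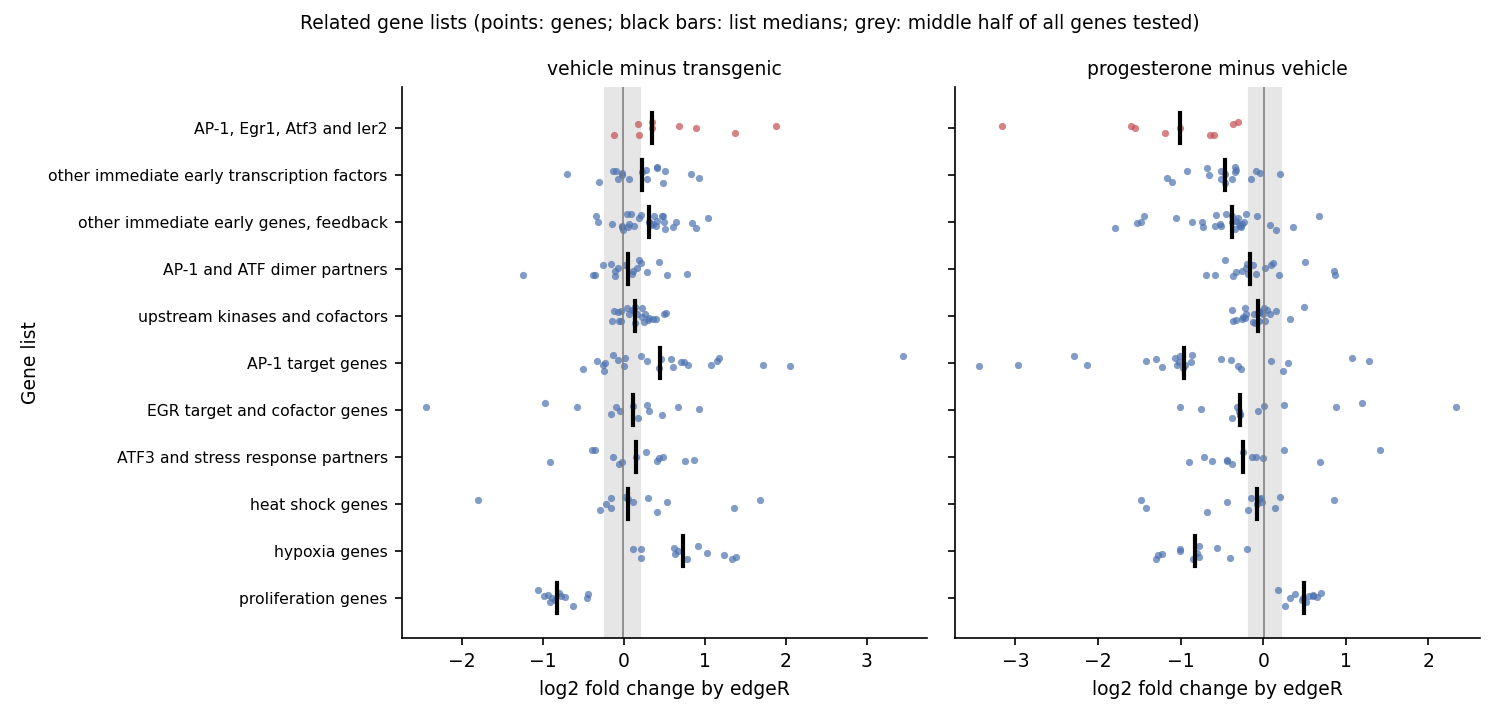
Log2 fold changes by edgeR of the genes of each list (points) with list medians (black bars), for vehicle minus transgenic (left) and progesterone minus vehicle (right), and grey bands for the interquartile range of all genes tested. On the right the 9 factors (red) have a median of -1.003, the 2 lists of other immediate early genes -0.47 and -0.37, and the upstream kinases -0.06.

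Other programmes differed beside the factors, and their part in the result was not tested. Hypoxia genes were higher in vehicle than in transgenic tumours for 12 of 12 (median 0.73) and lower in progesterone than in vehicle tumours for 12 of 12 (median -0.83). By edgeR and limma-voom 0 were called in either comparison, 7 and 8 had an unadjusted p under 0.05, and DESeq2 called 4 and 4. The inducible chaperone Hspa1a had 37.6 and 32.01 CPM in vehicle, 11.8 and 9.82 in transgenic and 10.0 and 15.0 in progesterone tumours, although the 13 heat shock genes had a median near 0 in both comparisons (0.05 and -0.07). By edgeR and limma-voom 0 heat shock genes were called, 3 were higher and then 3 lower at an unadjusted p under 0.05, and DESeq2 called Hspa1a and its near-identical copy Hspa1b in both. Proliferation genes were lower in vehicle than in transgenic tumours for 12 of 12 (median -0.82) and higher in progesterone than in vehicle tumours for 12 of 12 (median 0.50). By edgeR 0 of them were called in either, 12 and 6 had an unadjusted p under 0.05, limma-voom called 0 and DESeq2 5 and 0.

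Marker genes of host cells also differed between libraries, and their part in the result was not tested. The summed level of the 9 matched macrophage markers was 2711 and 2319 CPM with progesterone, 1417 and 1720 with vehicle and 1176 and 2463 in transgenic tumours. None of these markers was at 0 in any library. Lyz2 made up most of the sum, with 1706 and 1184 CPM, 806 and 1093 and 730 and 1522 in the same order. Mast cell and basophil markers summed to 80.7 and 181 CPM in progesterone, 29.7 and 30.9 in vehicle and 17.2 and 34.3 in transgenic tumours. Of these 7 markers 5 were higher and 2 lower in progesterone than in vehicle tumours. By edgeR and limma-voom 0 of them were called, and DESeq2 called 4. At an unadjusted p under 0.05, 5 were higher and 1 lower. The basophil marker Mcpt8 went down, with 0.0386 and 0.289 CPM in progesterone, 4.01 and 2.23 in vehicle and 0.592 and 3.41 in transgenic tumours. Endothelial markers summed to 102 and 235 CPM with progesterone, 236 and 232 with vehicle and 226 and 276 in transgenic tumours. Fibroblast and pericyte markers summed to 5344 and 9632 CPM with progesterone, 6998 and 11787 with vehicle and 7836 and 1986 in transgenic tumours, lowest in transgenic library 2. Most of this sum was Col3a1, with 3636 and 6928 CPM, 5309 and 8604 and 6166 and 1414 in the same order. Dcn, Lum, Dpt and Pdgfra were also lowest in transgenic library 2, but Pdgfrb was highest there, at 89.4 CPM. Neutrophil markers summed to 51.8 to 237 CPM, T and NK cell markers to 2.71 to 20.8 and B and plasma cell markers to 1.99 to 15.4. Red blood cell transcripts summed to 2817 and 62.9 CPM in transgenic, 2488 and 299 in vehicle and 85.9 and 166 in progesterone tumours. In whole tumours, fewer cells of a type and less RNA per cell cannot be told apart, and tumour and host transcripts of these factors are counted together.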

How the data were processed

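The deposited table holds raw read counts per gene for 6 libraries, with no normalization by the authors. Per the submitters' processing notes, the tools were HISAT2, HTSeq and DESeq, on build GRCm38.p6, with versions and strand setting not given in the sources used here. Per the labels, 500 ng of total RNA went into a directional mRNA kit with 11 PCR cycles. In R 4.3.3, genes were filtered with filterByExpr and scaled by TMM in edgeR 4.0.16. All 6 libraries entered 1 quasi-likelihood model with a mean for each group (3 residual degrees of freedom), and p-values were adjusted over 13632 genes (Benjamini-Hochberg, called under 0.05). Standard errors were derived from the F statistic. TPM used exon-union lengths of GENCODE M21, in which 19284 of the 19288 IDs were found. Log2 CPM had a prior count of 2. limma 3.58.1 and DESeq2 1.42.0 were alternatives. The fit was also run on simulated data, and the outcome is not reported here.

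The factors, lists and markers were chosen with earlier results of these data known. All factors are named, with up to 4 genes per list by smallest p over the comparisons and the 8 genes most similar in pattern. Some genes that this rule names are not reported here. Pathway lists covered other immediate early factors, other immediate early genes, dimer partners, upstream kinases, AP-1, EGR and ATF3-related genes, heat shock, hypoxia and proliferation. The labels do not say that the libraries came from separate animals, and a p-value here measures only how these libraries vary, which may be technical.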

Additional observations from a re-analysis of the deposited data

How the results depend on the processing

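With 2 libraries per group every value rests on few tumours. Of 351 factor values under 13 alternatives, 339 kept their direction and their side of the threshold, 5 became called and 7 changed sign. As 0 factors were called in the main fit, keeping the side of the threshold says little about stability. Beside 0 called genes by edgeR, DESeq2 called 66 in vehicle against transgenic, 75 in progesterone against vehicle and 47 in progesterone against transgenic tumours, and edgeR without the filter on low counts called 12, 92 and 28. The cause was not tested. Leaving out each library in turn, 0 genes were called in any comparison. The median log2 fold change of the 9 factors then ranged from -0.71 to -0.45 in progesterone against transgenic tumours, from -1.07 to -0.95 in progesterone against vehicle and from 0.33 to 0.50 in vehicle against transgenic tumours. Values that changed sign ranged, in vehicle against transgenic tumours, from -0.0056 to 0.81 for Jund and from -0.0796 to 0.50 for Fosl1. In progesterone against transgenic tumours they ranged from -0.24 to 0.78 for Fos, from -0.45 to 0.13 for Fosl1 and from -0.29 to 0.30 for Jun. Where a group kept 1 library, that library was assumed to vary like the other groups.

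The labels number libraries 1 and 2 in each group. Deviations of same-numbered libraries from their group means correlated at 0.08, -0.17 and -0.13 across genes for the 3 pairs of groups, and nothing in the labels ties the numbers to a shared source. With the replicate block 0 genes were called in each comparison, and the factors' medians were 0.37, -1.004 and -0.63. In 9 of the 27 combinations of factor and group the 95% Wilson intervals of both libraries overlapped. There the 2 libraries did not differ clearly beyond counting error at these depths. With 2 libraries per group the spread is poorly known throughout.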
